A study of Mus musculus with 39 samples.

Results

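The genes described here encode the transferases that conjugate drugs, hormones and waste products: the glutathione transferases (symbols Gst followed by a class letter and a number), the UDP-glucuronosyltransferases (Ugt1, Ugt2 and Ugt3) and the cytosolic sulfotransferases (Sult). They were chosen by symbol, with earlier results of these data known. The table of kidney, liver and lung held 63 such genes among 24537, and the separate table of skin held 71 among 52508, of which 63 were the same and 7 of the other 8 were named as pseudogenes. The Ugt1a genes share their last exons, and their rows differed by at most 4 counts in any library, so they were counted as 1 member, the Ugt1a locus, read from the row of Ugt1a1. That left 56 members in the first table and 63 in skin.

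A conjugating transferase joins a lipophilic molecule to a water-soluble group, which makes it easier to excrete in bile or urine. Glutathione transferases add the tripeptide glutathione to electrophiles, UDP-glucuronosyltransferases add a sugar, mainly glucuronic acid, to bilirubin, steroids, bile acids and drugs, and sulfotransferases add sulfate to phenols, hormones and sterols. Liver and kidney are the best known sites of these reactions, while lung and skin hold a smaller set, and several members are known to differ between the sexes in mouse liver.

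All mice were Prf1-/- on C57BL/6, so that every group, the young one included, lacked perforin, the pore-forming protein of cytotoxic lymphocytes, and no wild-type library was compared. Per the study the mice were male. Young mice were 3 months old and untreated. Old mice were 20 months old and had received, from the age of 18 months, either vehicle or ABT-737, an inhibitor of the BCL-2 family of survival proteins, at 25 mg/kg. Kidney, liver and lung had 4 young, 3 vehicle and 3 ABT-737 libraries each, and skin had 3 of each; some treated samples carry a compound name that differs from ABT-737 by its last digit, and these were taken as ABT-737 from their titles. Prf1 itself, which is knocked out in every group and therefore checks no label, had between 0 and 169 counts per library.

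Gene totals ran from 223957 to 891116 counts in liver, from 1046508 to 2600092 in lung, from 1431814 to 3513311 in kidney and from 1493411 to 3842808 in skin, so liver was the shallowest tissue and its vehicle replicate 3 the shallowest library. Hepatocyte markers (Alb, Apoa1, Ttr and 3 others) summed to between 55668 and 88687 counts per 1000000 in every liver library, and kidney tubule markers to between 10762 and 13028 in every kidney library. Levels below are CPM, counts per 1000000 counts of a library after scaling between the libraries of 1 fit. They are compared between samples, not between genes. Enough counts to be tested were found for 24 members each of kidney and of liver, 21 of lung and 19 of skin. In the same order of tissues, 18, 21, 23 and 30 members were at 0 in every library, 8, 3, 12 and 8 had at most 3 counts in any library, and 6, 8, 0 and 6 had more than 3 counts but were not tested. Among those at 0 in liver were Sult1e1, the oestrogen sulfotransferase, and 7 of the 8 Sult2a genes, hydroxysteroid sulfotransferases.

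Promoters of Ugt2b34, Ugt2a3 and Ugt2b35 are shown, because these genes had the largest falls among the members that passed in old liver. Each line gives the 150 bases before the transcription start, 5′ to 3′ on the gene's strand, from RefSeq on GRCm38.p6, with Ugt2b34 at chr5:86906938-86907087 (minus strand), Ugt2a3 at chr5:87337196-87337345 (minus strand) and Ugt2b35 at chr5:87000710-87000859 (plus strand). Capitals mark GTTAAT, an arm of the palindrome bound by the liver and kidney factor HNF1, on either strand.
Ugt2b34: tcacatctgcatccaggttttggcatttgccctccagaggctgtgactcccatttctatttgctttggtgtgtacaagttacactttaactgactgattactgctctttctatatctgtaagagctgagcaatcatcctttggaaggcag
Ugt2a3: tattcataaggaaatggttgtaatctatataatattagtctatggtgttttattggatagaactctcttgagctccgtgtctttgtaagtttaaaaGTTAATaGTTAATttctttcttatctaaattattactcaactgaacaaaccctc
Ugt2b35: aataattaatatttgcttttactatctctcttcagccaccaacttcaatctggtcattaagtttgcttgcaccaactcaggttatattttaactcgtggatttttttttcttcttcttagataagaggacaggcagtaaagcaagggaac
Ugt2a3 held 2 copies of GTTAAT, and Ugt2b34 and Ugt2b35 held none in these bases. In the full RefSeq windows of 300 bases, 250 before and 50 after each start, GTTAAT was found in 14 of 67 member promoters, or 20.9%, against 7.1% of all 32817 promoters. Those promoters included Ugt1a1, Ugt1a6a, Ugt1a9 and Ugt1a10, which are counted elsewhere as the Ugt1a locus. They also included Sult2a3, Sult2a4, Sult2a5, Sult2a6 and Sult3a2, which had no count in any liver library. TGACNNNGC, the core of the antioxidant response element, was found in 3 member promoters, or 4.48%, against 12.4% of all. The other 3 motifs searched on both strands were TATAAA (22.4% of member promoters against 13.6% of all), GCGTG (19.4% against 32.4%) and AGGTCA (17.9% against 16.3%). These are matches of letters in a table that held 55 of the 63 genes.

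In young mice the members were largely liver genes. Of the 31 tested across the 12 young kidney, liver and lung libraries, 17 (54.8%) were higher in liver than in both other tissues, 7 (22.6%) were highest in kidney, 2 (6.45%) in lung and 5 in none. Over all 11867 genes tested, 13.6% were highest in liver, 17.2% in kidney and 28.7% in lung, by the quasi-likelihood test of edgeR with p-values adjusted after Benjamini and Hochberg. The members took between 1.12% and 1.36% of all counts of a young liver library, against 0.643% to 0.776% in kidney, 0.352% to 0.425% in lung and, in the separate table, 0.103% to 0.111% in skin.

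The liver members included Gsta3, an alpha-class enzyme that detoxifies aflatoxin epoxide, at 3704 ± 845 CPM (SD, n = 4) against 225 ± 22.1 in kidney and 332 ± 56.4 in lung. Gstp1, the pi-class enzyme, stood at 1852 ± 356 CPM in liver, 119 ± 7.73 in kidney and 106 ± 26.4 in lung. Gstz1, the maleylacetoacetate isomerase of tyrosine breakdown, stood at 1535 ± 75.5, 511 ± 16.8 and 65.2 ± 10.3 CPM in the same order. For none of these 3 genes did a liver library overlap the other tissues. The Ugt1a locus, which includes the bilirubin-conjugating enzyme Ugt1a1, was at 1829 ± 292 CPM in liver, 890 ± 86.8 in kidney and 85.8 ± 7.19 in lung. Ugt2b34, a UGT2B enzyme, was at 361 ± 61.6 CPM in liver and 8.45 ± 2.9 in kidney and had no count in young lung.

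Kidney held its own Ugt genes. Ugt3a2, of a family that uses sugar donors other than UDP-glucuronic acid, was at 1437 ± 102 CPM in kidney and 379 ± 64.5 in liver, and 1 of the 4 lung libraries had any count. Ugt2b38 was at 283 ± 126 CPM in kidney, 1.31 ± 1.52 in liver and 0.108 ± 0.217 in lung. Gsta2, an alpha-class enzyme, was at 526 ± 80.3 CPM in kidney, 76.6 ± 19.8 in liver and 17.8 ± 2.71 in lung. The lung members were the mu-class gene Gstm2, at 518 ± 136 CPM against 118 ± 42.1 in liver and 103 ± 39.1 in kidney, and Sult2b1, a cholesterol sulfotransferase, at 6.25 ± 1.13 CPM against 2.41 ± 0.967 in kidney with no count in liver. Sult5a1, a sulfotransferase whose substrates are little known, was at 81.2 ± 3.38 CPM in lung and 62.5 ± 31.6 in liver, a pair that did not pass the test between them, and at 3.03 ± 2.2 in kidney.

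**Figure D1:**
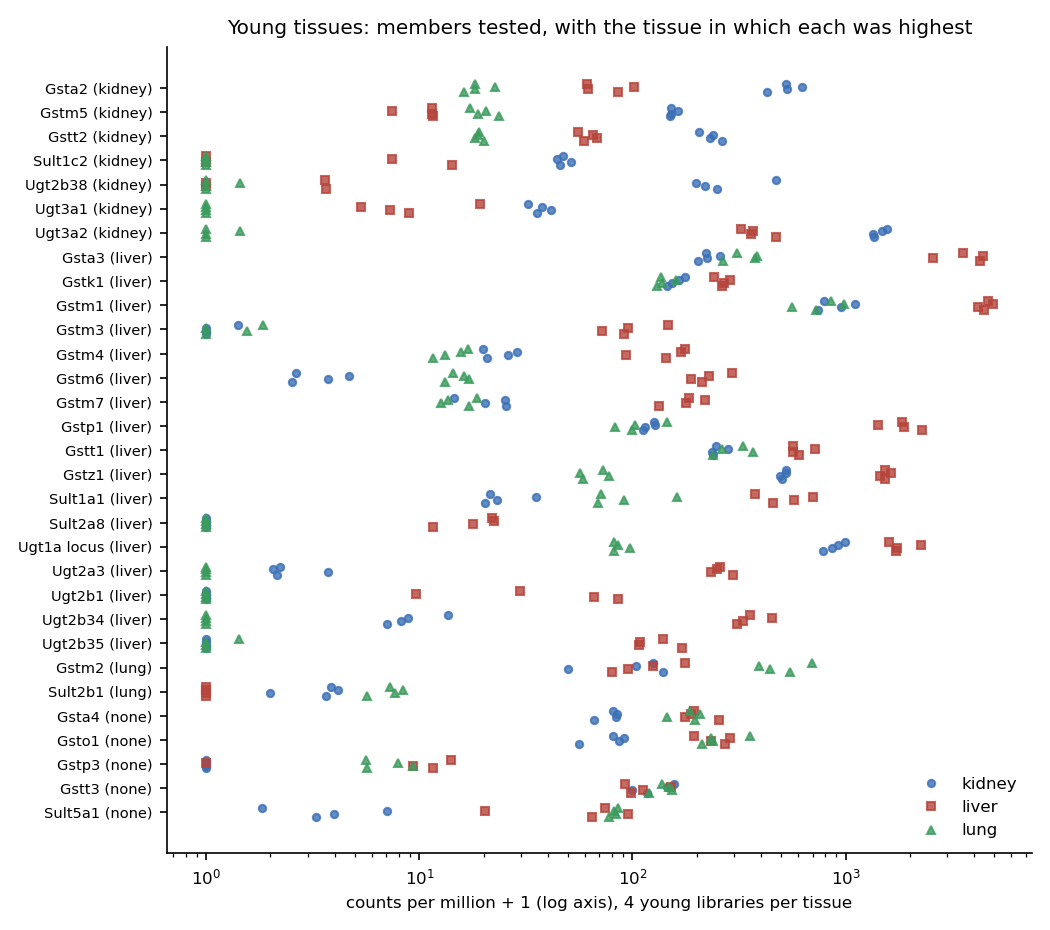
Level of the 31 members tested across young tissues, in CPM plus 1 on a log axis, with 1 point per library (4 kidney, 4 liver and 4 lung) and the tissue in which each was highest in brackets. The 17 members at highest level in liver, such as Gsta3 and Gstp1, stand to the right of kidney and lung, while Ugt2b38 and Ugt3a2 stand highest in kidney.

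The comparison of old vehicle-treated with young Prf1-/- mice asks how these enzymes differ with age in mice that lack perforin. The old mice had received vehicle and the young mice had not, so age and vehicle treatment cannot be told apart, and "with age" stands for this comparison. In liver 7 members fell and none rose. The fallen members were Ugt2b34, Ugt2a3, Ugt2b35 and the Ugt1a locus among the 6 tested Ugt members, and Gstm4, Gstp1 and Gstm6 among the 16 tested Gst members. Neither Sult1a1 nor Sult5a1, the tested Sult members, passed. Sult2a8 had too few counts to be tested with age. It had 4, 8, 10 and 8 counts in young liver, 0, 0 and 1 with vehicle and 0, 2 and 2 with ABT-737. Of all genes tested in liver, 10.8% fell and 11.7% rose, by edgeR's quasi-likelihood test at an adjusted p of 0.05. The median log2 fold change was -0.34 over the 24 members and 0.02 over all genes, and 18 of the 24 members had a negative value, including all 6 Ugt members with a median of -1.56.

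Ugt2b34 (NM_153598, chr5:86889770-86906937) had 227, 234, 321 and 261 CPM in young liver and 8.73, 23.4 and 61.6 in vehicle-treated liver. The groups were far apart, with a fitted 7.28-fold lower level (log2 fold change -2.86, SE 0.36, edgeR adjusted p = 7.11e-05). Ugt2a3 (NM_028094, chr5:87324972-87337195), a UGT2A enzyme known to conjugate bile acids, had 215, 165, 178 and 188 CPM in young and 21.8, 33.9 and 80.9 in vehicle-treated liver, a 3.75-fold lower level (edgeR adjusted p = 0.000538). Ugt2b35 had 124, 76, 76.8 and 102 CPM in young and 4.36, 14 and 52.7 in vehicle-treated liver, 3.36-fold lower (edgeR adjusted p = 0.00921). In all 3 of these genes vehicle replicate 3 was lowest and vehicle replicate 5 highest, and no vehicle liver reached the young range. The values of vehicle replicate 3 rested on 2 counts of Ugt2b34, 5 of Ugt2a3 and 1 of Ugt2b35.

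The Ugt1a locus had 1259, 1237, 1614 and 1176 CPM in young liver and 153, 460 and 891 in vehicle-treated liver, 2.59-fold lower (edgeR adjusted p = 0.0184), where 153 CPM in vehicle replicate 3 rested on 35 counts. Gstp1 had 1673, 1331, 1014 and 1347 CPM in young and 873, 697 and 407 in vehicle-treated liver, 2.05-fold lower (edgeR adjusted p = 0.0177). Here it was replicate 5 that stood lowest, so the vehicle livers did not share 1 ranking over these members. Gstm4, a mu-class enzyme, fell 2.21-fold from 105 ± 27.9 to 48 ± 11.3 CPM (edgeR adjusted p = 0.0107). Gstm6, another gene of the mu-class cluster of chromosome 3, fell 1.73-fold from 166 ± 34.8 to 93 ± 22.3 CPM (edgeR adjusted p = 0.0249). Gsta3, with 934, 1024 and 2810 CPM in vehicle-treated liver, overlapped the young range of 1833 to 3158 and did not pass (edgeR adjusted p = 0.134), and Gstm1 stood at a log2 fold change of -0.02 (SE 0.27).

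The 7 calls did not all rest on the same libraries. Leaving out vehicle replicate 4 left 3 of them, and Ugt2b34 and Ugt2a3 passed without any 1 library.

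**Figure D2:**
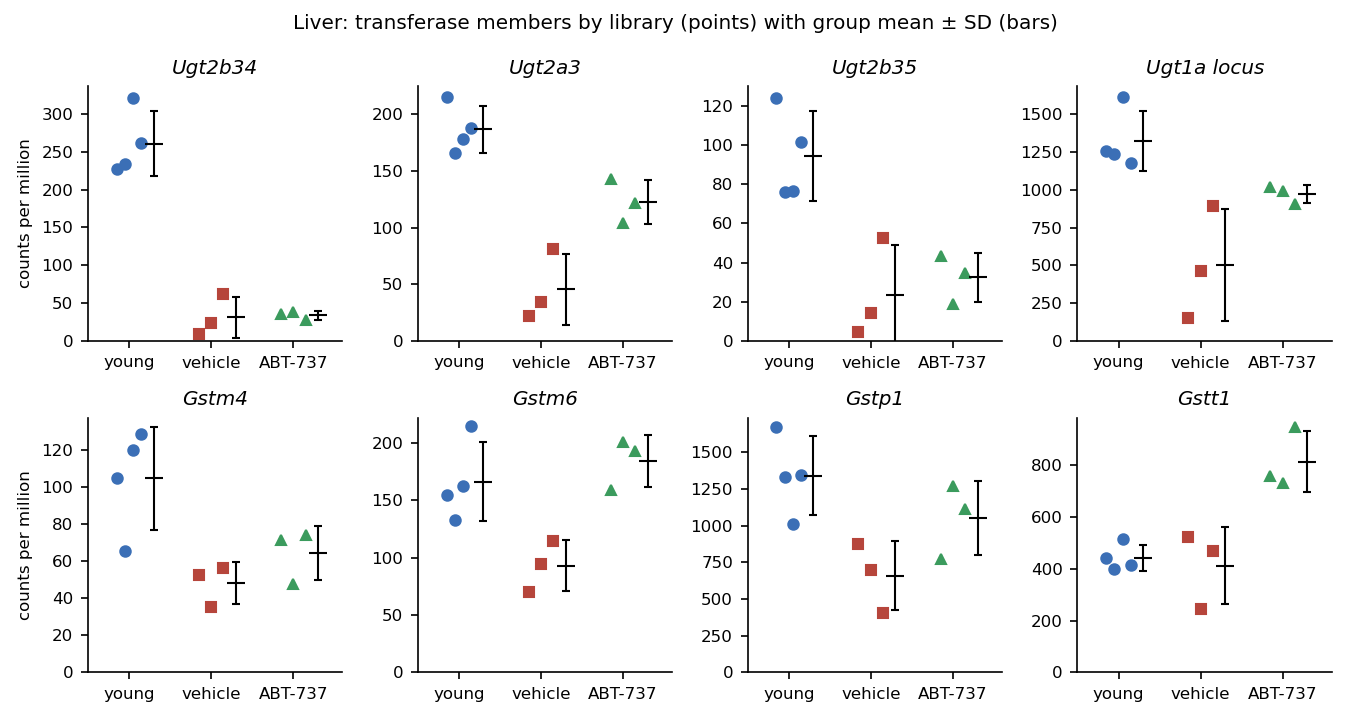
Levels (CPM) of 8 members in liver, with 1 point per library (4 young, 3 vehicle, 3 ABT-737) and a bar for each group's mean and SD, cut at 0. Ugt2b34 and Ugt2b35 stayed low in ABT-737-treated liver, with 27.2 to 37.9 CPM for Ugt2b34, while Ugt2a3, Gstm6 and Gstt1 stood above the vehicle libraries.

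In kidney 4 members fell with age and 1 rose among 24 tested, where 5.5% of all genes fell and 7.75% rose. Ugt2b34 was again the member with the largest log2 fold change among those that passed: it had 6.86, 7.99, 8.78 and 14.3 CPM in young and 3.14, 3.42 and 2.35 in vehicle-treated kidney, 3.14-fold lower (edgeR adjusted p = 0.00568), although a vehicle library held only 5 to 8 counts. Ugt3a2 had 1546, 1487, 1653 and 1763 CPM in young and 1261, 851 and 997 in vehicle-treated kidney, 1.55-fold lower (edgeR adjusted p = 0.0139). Ugt2b38 fell 1.99-fold from 319 ± 144 to 159 ± 55.9 CPM (edgeR adjusted p = 0.0337). All 5 tested Ugt members had negative values in kidney, with a median of -0.64 against -0.18 for the 15 Gst members.

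Gstm4 fell 1.65-fold in kidney, from 25.6 ± 4.63 to 15.7 ± 2.22 CPM (edgeR adjusted p = 0.0306). Gsta3 rose 1.43-fold, with 230, 246, 285 and 248 CPM in young and 306, 370 and 408 in vehicle-treated kidney (edgeR adjusted p = 0.0277). Gstt1, a theta-class enzyme for small halogenated compounds, had 261 to 310 CPM in young and 346 to 421 in vehicle-treated kidney without passing (edgeR adjusted p = 0.0504). Only 1 member was left without vehicle replicate 4, likewise without vehicle replicate 5, and 3 were left without young replicate 2 or young replicate 4; Ugt2b34 passed without any 1 library.

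**Figure D3:**
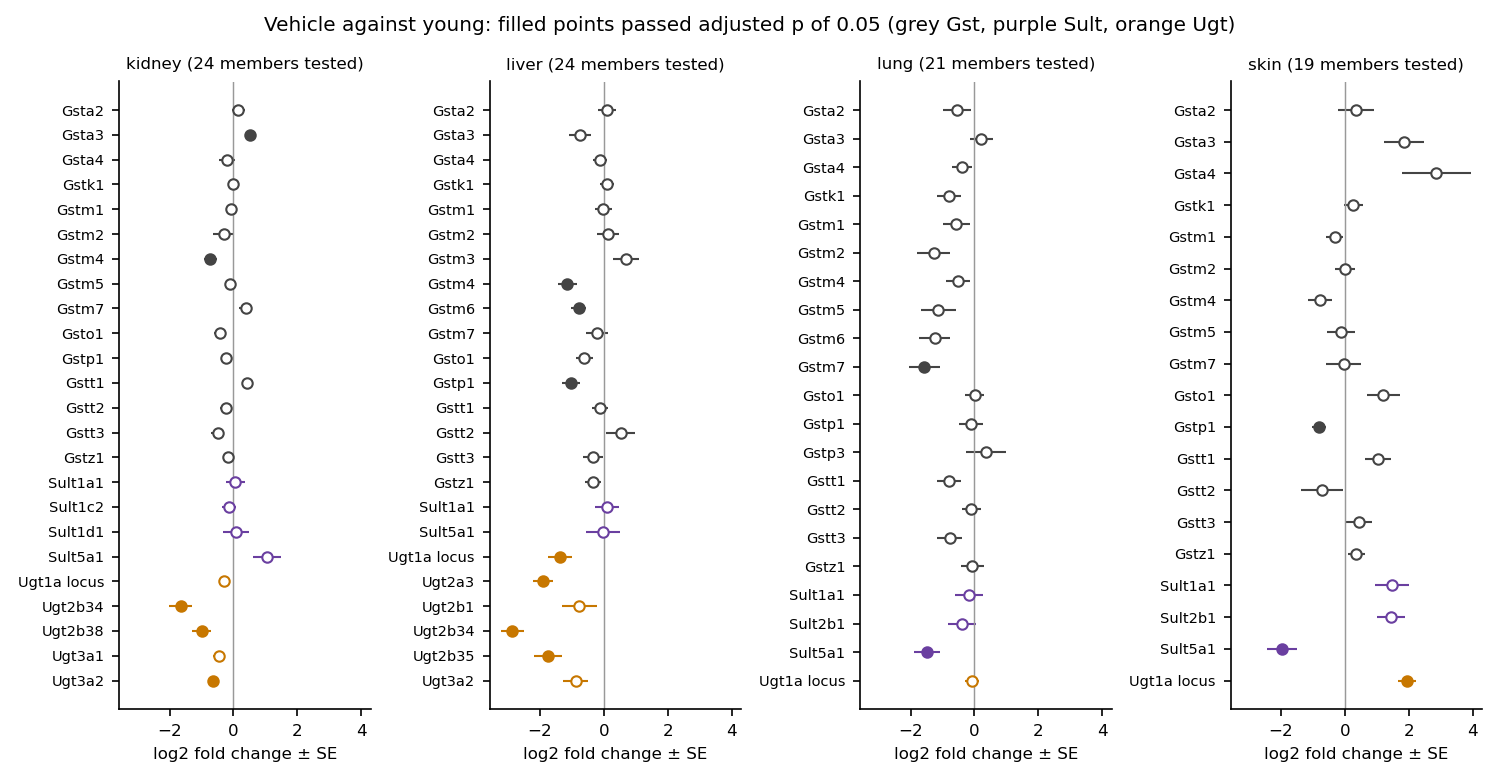
Log2 fold change of vehicle-treated old against young mice, with its standard error, for every tested member in kidney, liver, lung and skin (0 is the vertical line). The tested Ugt members have negative values in kidney (5 of 5) and liver (6 of 6). The Ugt1a locus, the only Ugt member tested in lung and in skin, lies near the line in lung (-0.07, SE 0.23) and to the right at 1.94 in skin.

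In lung 2 of 21 members fell, Sult5a1 and Gstm7, and none rose, where 4.73% of all genes fell and 8.15% rose. Sult5a1 had 96.1, 104, 101 and 105 CPM in young and 28.8, 57 and 22.4 in vehicle-treated lung, 2.8-fold lower (log2 fold change -1.48, SE 0.40, edgeR adjusted p = 0.0253). No vehicle lung reached the young range of 96.1 to 105 CPM. Gstm7, a mu-class enzyme, had 20.1, 14.6, 15.7 and 21.8 CPM in young and 4.02, 9.01 and 4.86 in vehicle-treated lung, 2.97-fold lower (edgeR adjusted p = 0.0489). Values were negative for 18 of the 21 members, and the median was -0.51 against 0.04 for all genes.

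Other mu-class members had values of the same sign without passing, among them Gstm6 (log2 fold change -1.24, SE 0.49, edgeR adjusted p = 0.108) and Gstm2 (-1.28, SE 0.53, edgeR adjusted p = 0.12). Vehicle replicate 5 was the lowest lung library of several members, such as Gstm1 at 331 CPM and Gstk1, a kappa-class enzyme of mitochondria and peroxisomes, at 55. The same library had the lowest sum of club and ciliated cell markers, 9376 CPM against 22935 to 29902 in young lung, and the highest sum of leukocyte markers, 14818 CPM, and the part of these in the lung values was not tested. With the replicate number as a block neither lung call held (edgeR adjusted p = 0.0896 for Sult5a1 and 0.27 for Gstm7). Neither held without vehicle replicate 3 or replicate 5, nor without any 1 of the 4 young libraries; 1 was left when ABT-737 replicate 3 was dropped, and 7 members were called when vehicle replicate 4 was.

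In skin 2 of 19 members fell and 1 rose, where 5.35% of all genes fell and 5.84% rose. The Ugt1a locus rose 3.84-fold, from 23.2, 24.7 and 37.8 CPM in young to 98, 94 and 139 in vehicle-treated skin (log2 fold change 1.94, SE 0.29, edgeR adjusted p = 0.0112). Sult5a1 had 242, 253 and 184 CPM in young and 50.5, 96.1 and 27.3 in vehicle-treated skin, 3.91-fold lower (edgeR adjusted p = 0.0327). Gstp1 fell 1.75-fold, from 96.7 ± 3.38 to 55.5 ± 12.2 CPM (edgeR adjusted p = 0.0446). Sult2b1, which makes cholesterol sulfate in the epidermis, had 32.6, 46 and 57.8 CPM in young and 109, 68.7 and 195 in vehicle-treated skin, apart but not past the threshold (edgeR adjusted p = 0.0619).

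Skin samples differed in make-up. Skeletal muscle markers summed to 47039 to 65948 CPM in young and 7362 to 33668 in vehicle-treated skin, sebaceous gland markers to 351 to 618 and 1022 to 1697, and keratinocyte markers to 13153 to 17544 and 16632 to 37228, and the part of these in the Sult5a1, Ugt1a and Sult2b1 values was not tested. As in every bulk tissue here, fewer cells of a type and less RNA per cell cannot be told apart. Without young replicate 1 or 2 no skin member passed, and leaving out young replicate 3, ABT-737 replicate 5 or a vehicle library other than replicate 4 left 1. The high vehicle means of Gsta4, which conjugates the lipid peroxidation product 4-hydroxynonenal, and of Gsto1, an omega-class thioltransferase, came from replicate 5 alone, at 282 and 453 CPM against at most 16.3 and 121 in the other two vehicle skins, and neither passed.

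**Figure D4:**
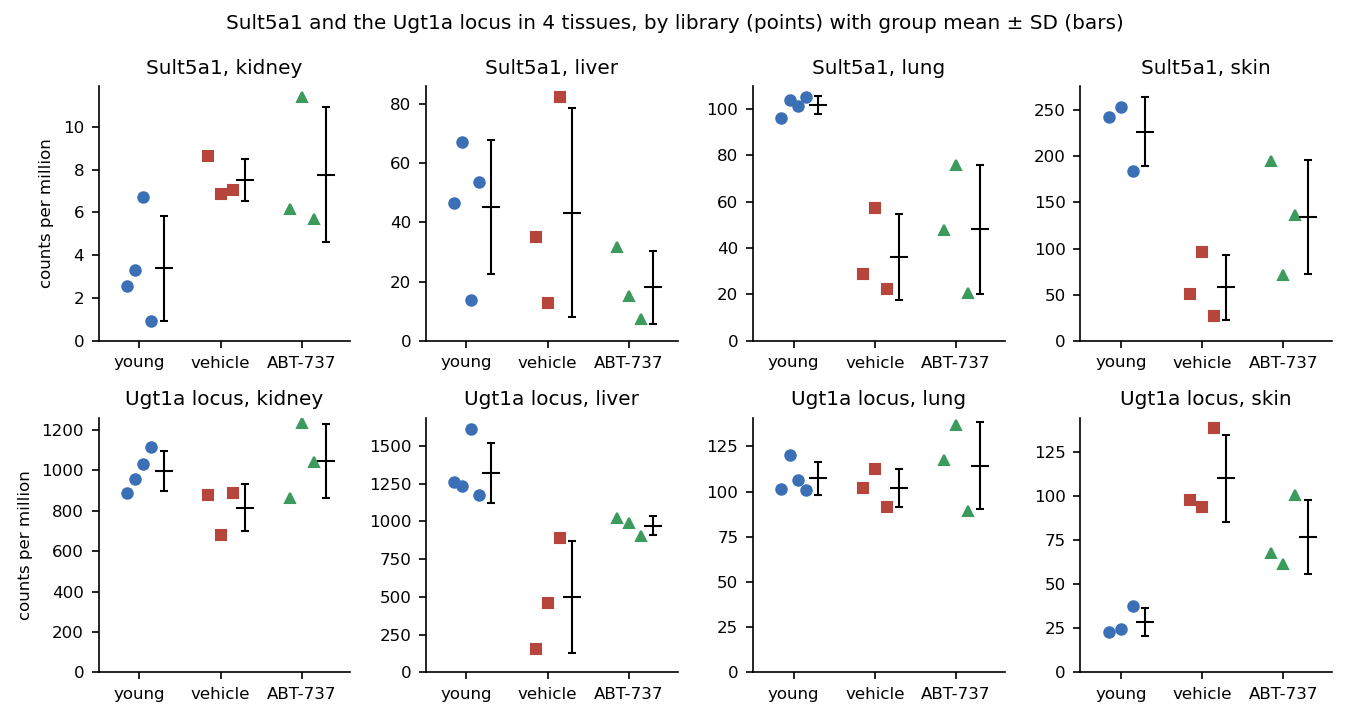
Levels (CPM) of Sult5a1 (top) and of the Ugt1a locus (bottom) in kidney, liver, lung and skin, with 1 point per library and a bar for each group's mean and SD; each panel has its own scale from 0. Sult5a1 was lower in every vehicle library than in every young library of lung and skin, and the Ugt1a locus was lower in vehicle-treated liver and higher in vehicle-treated skin.

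Differences between tissues were tested directly within the first table. These fits treated same-numbered libraries of different tissues as independent, and the labels do not say whether they came from the same mouse. Between liver and kidney, 1 of 32 members changed differently with age, where 2.66% of all genes did: Gstm6, whose change was lower in liver by 1.60 on the log2 scale (SE 0.42, edgeR adjusted p = 0.0311), with only 4 to 14 counts per kidney library. The fall of Ugt2b34 was not shown to differ between liver and kidney (difference -1.21, SE 0.58, edgeR adjusted p = 0.299). Between lung and kidney, a comparison added after the values were seen, 3 of 27 members differed, where 8.35% of all genes did: Sult5a1 (-2.55, SE 0.63, edgeR adjusted p = 0.019), Gstm7 (-1.96, SE 0.52, edgeR adjusted p = 0.0256) and Gstm6 (-2.11, SE 0.65, edgeR adjusted p = 0.0475). In kidney Sult5a1 had 0.923 to 6.73 CPM in young and 6.84 to 8.64 in vehicle-treated mice, the opposite order to lung. These kidney values rested on 6, 12, 23 and 2 counts in young and 22, 10 and 15 in vehicle-treated libraries. The kidney change alone did not pass (edgeR adjusted p = 0.122). The Gstm6 difference between lung and kidney passed in 3 of the 20 fits that each left out 1 library, Gstm7 in 15 and Sult5a1 in 19. The number of members that differed between lung and kidney was 0 without lung vehicle replicate 5, 1 without lung vehicle replicate 3, kidney vehicle replicate 4 or 5 or kidney young replicate 4, and 7 without lung vehicle replicate 4. The Gstm6 call between liver and kidney was lost without liver vehicle replicate 4, liver young replicate 1, 3 or 4, liver ABT-737 replicate 5, kidney vehicle replicate 3 or 4, or kidney young replicate 1 or 4, and 4 members differed without liver vehicle replicate 5.

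The comparison of ABT-737 with vehicle in old mice asks whether these levels moved with the treatment. In liver Ugt2a3 and Gstm6 rose and no member fell, where 1% of all genes rose and 2.85% fell. Ugt2a3 had 143, 104 and 121 CPM with ABT-737 against 21.8, 33.9 and 80.9 with vehicle, 2.44-fold higher (log2 fold change 1.29, SE 0.34, edgeR adjusted p = 0.0463). Gstm6 had 159, 201 and 193 CPM against 69.8, 94.8 and 114, 1.93-fold higher (edgeR adjusted p = 0.047). In both genes every treated liver stood above every vehicle liver, and in Ugt2a3 every treated liver stayed below the lowest young value of 165 CPM.

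Gstt1 had 757, 732 and 948 CPM with ABT-737 against 524, 243 and 469 with vehicle, 1.99-fold higher without passing (edgeR adjusted p = 0.0579). Gsta2 had 79.3, 106 and 136 against 74.2, 63.2 and 46.2 CPM (edgeR adjusted p = 0.121), and the Ugt1a locus had 1022, 990 and 904 against 153, 460 and 891 (edgeR adjusted p = 0.255). Ugt2b34, with 35.7, 37.9 and 27.2 CPM, lay within the vehicle range of 8.73 to 61.6 (log2 fold change -0.08, SE 0.44). Values were positive for 18 of the 24 members, with a median of 0.37 against -0.03 for all genes, and this comparison and the one with young mice use the same 3 vehicle libraries. The 2 calls were fragile: none was left without any 1 of the ABT-737 libraries, vehicle replicate 4 or young replicates 1, 2 or 3, and 1 was left without young replicate 4, whereas 7 members passed without the shallow vehicle replicate 3 and 5 without vehicle replicate 5.

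In kidney no member passed between ABT-737 and vehicle by edgeR's or DESeq2's test, where 0.135% of all genes rose and 1.21% fell. At an unadjusted p under 0.05 there were 5 members, 4 of them higher with ABT-737. Ugt2b34 had 6.68, 5.44 and 6.75 CPM against 3.14, 3.42 and 2.35 (edgeR adjusted p = 0.219), and Ugt3a2 had 1561, 1408 and 1233 against 1261, 851 and 997 (edgeR adjusted p = 0.229). The groups did not overlap for Ugt2b34 and did for Ugt3a2. Gstp1 had 139, 135 and 156 against 114, 109 and 119 CPM (edgeR adjusted p = 0.271). Without vehicle replicate 3, 1 kidney member passed.

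In lung and in skin no member passed, and the share of all genes called was 0% in each, by edgeR's test. At an unadjusted p under 0.05 there were 0 members in lung and 2 in skin, Gsta4 and Sult5a1, and DESeq2 called 0 members in both. In lung the smallest p belonged to Gstk1 (log2 fold change 0.73, SE 0.39, edgeR adjusted p = 0.379), with 164, 251 and 90.4 CPM against 93.9, 155 and 55. In skin Sult5a1 had 195, 71.7 and 137 CPM with ABT-737 against 50.5, 96.1 and 27.3 with vehicle, and these overlapped (edgeR adjusted p = 0.576). The treatment effect was not shown to differ between liver and kidney for any of 32 members by edgeR's test, where 0.24% of all genes did; 6 had an unadjusted p under 0.05, DESeq2 called 2, and the edgeR count was 3 without liver vehicle replicate 5, 2 without liver vehicle replicate 3 and 1 without kidney vehicle replicate 3.

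**Figure D5:**
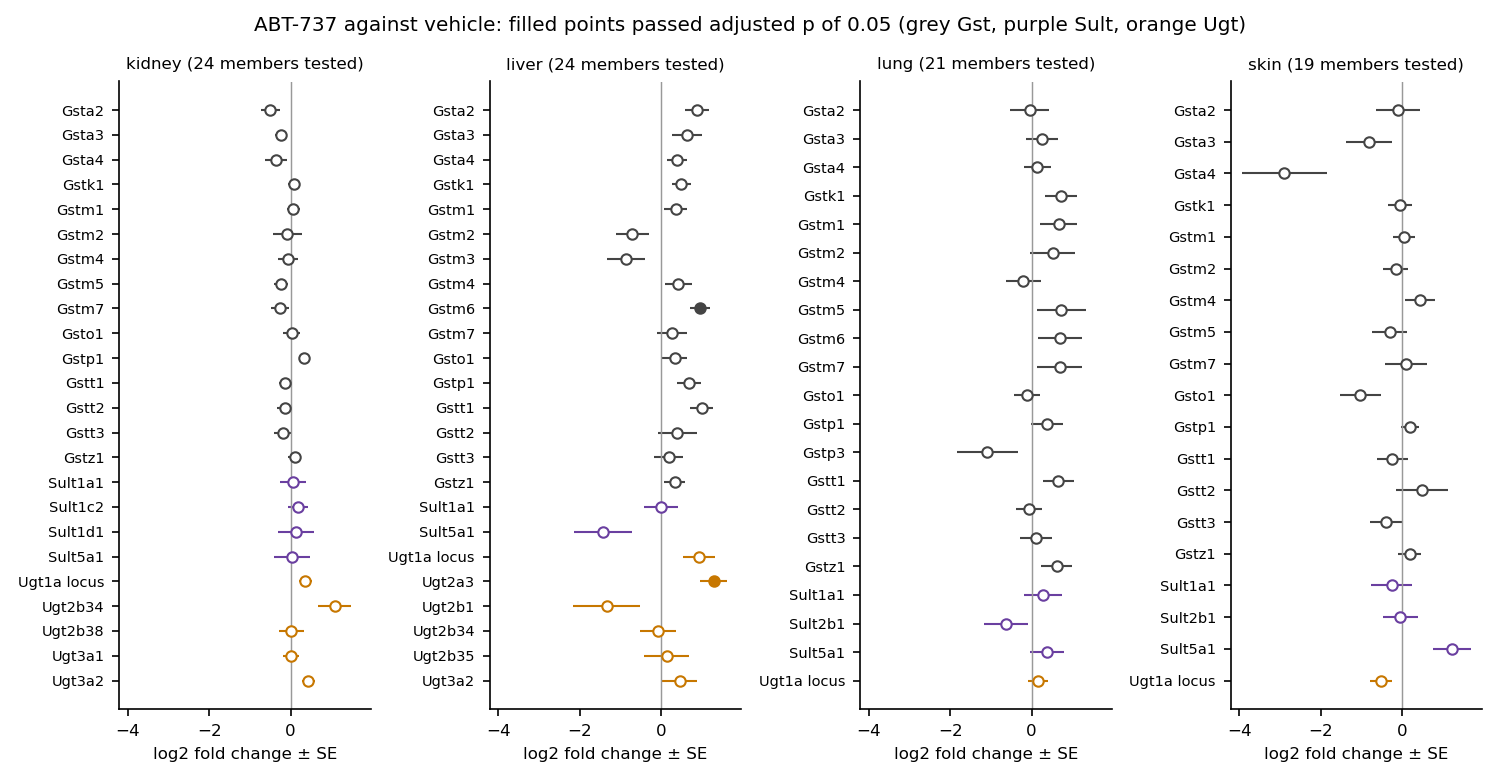
Log2 fold change of ABT-737 against vehicle in old mice, with its standard error, for every tested member in kidney, liver, lung and skin (0 is the vertical line, and filled points passed). The filled points are Ugt2a3 at 1.29 and Gstm6 at 0.95, both in liver.

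Genes that feed or surround the conjugation reactions were read from lists put together by function. With age, 11.7% of all tested genes rose and 10.8% fell in liver, and 7.75% rose and 5.5% fell in kidney. In lung 8.15% rose and 4.73% fell, and in skin 5.84% rose and 5.35% fell. With ABT-737, 1% rose and 2.85% fell in liver. The liver counts with age of glutathione genes and of regulators lay near those shares. Of 9 tested genes of glutathione synthesis and recycling, 1 rose and 1 fell in old liver, and in kidney 3 rose and 3 fell of 11, among them Gclc, the catalytic subunit of the rate-limiting enzyme, which fell from 312 to 158 CPM (edgeR adjusted p = 0.000528). Of 5 tested genes that supply UDP-glucuronate and the sulfate donor PAPS in liver, Ugdh, which makes UDP-glucuronate, and Ugp2, which makes UDP-glucose, fell, the former from 91.6 to 28.4 CPM (edgeR adjusted p = 0.004). Neither passed between ABT-737 and vehicle, where the median of these 5 was -0.29. Among 6 tested other phase II enzymes in liver, Mgst1, Ephx1 and Ephx2 fell and Nat8 rose with age, and Ephx1 and Ephx2, the epoxide hydrolases, rose with ABT-737 (edgeR adjusted p = 0.027 and 0.0488). Of 15 tested regulators in liver, 2 rose with age, Nr1i2, the receptor PXR, among them, 1 fell, Cebpa, and Ppara rose with ABT-737 from 162 to 286 CPM (edgeR adjusted p = 0.0493). Nr1i2 also rose in old kidney, from 7.67 to 17.6 CPM (edgeR adjusted p = 0.00958), with Maff, while Nr1h4, the bile acid receptor, fell. None of 4 tested conjugate exporters passed in old liver and 1 of 7, Abcc5, rose in old kidney. Of the deconjugating enzymes, lysosomal hydrolases among them, 2 of 5 rose in old lung and 3 of 5 in old skin, including Gusb, the glucuronidase, in both.

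Other gene lists moved with the same groups. The shares of all genes that rose or fell are those given for the lists above. The 12 leukocyte markers together stood at 98.7 to 152 CPM in young liver, 995 to 1218 with vehicle and 106 to 245 with ABT-737, 6 of 6 tested rose with age and fell with ABT-737, and Cd79a had no count in liver. For kidney the young, vehicle and ABT-737 ranges of that sum were 154 to 165, 583 to 1025 and 237 to 371 CPM, for lung 1287 to 1569, 4608 to 14818 and 1810 to 4634, and for skin 140 to 414, 885 to 2268 and 299 to 671. Acute-phase genes of liver reached 13000 to 19500 CPM when young, 32351 to 114221 with vehicle and 17026 to 29045 with ABT-737; all 10 rose with age and 8 fell with ABT-737. Male-biased liver genes stood at 4411 to 6366, 1194 to 3107 and 3705 to 6889 CPM, and 7 of 8 tested fell with age. The 13 circadian clock genes together stood at 488 to 652 CPM when young, 191 to 262 with vehicle and 213 to 262 with ABT-737 in liver. The ranges in the same order were 986 to 1126, 410 to 472 and 465 to 482 in kidney, 1428 to 1696, 156 to 388 and 329 to 457 in lung, and 1320 to 1365, 199 to 408 and 183 to 388 in skin. Clock genes passed in both directions with age, 1 up and 2 down of 6 tested in liver, 3 up and 6 down of 13 in kidney, and 2 up and 6 down both of 13 in lung and of 12 in skin. Of 4 red blood cell markers, 4 rose with age in kidney and in skin, 3 in liver and 2 in lung, and their sum in kidney was 759 to 4207 CPM when young, 8411 to 8769 with vehicle and 5627 to 8566 with ABT-737. Hair follicle markers ranged from 333 to 376 CPM in young skin, 293 to 8920 with vehicle and 357 to 21160 with ABT-737. The part of each of these in the members' values was not tested.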

How the data were processed

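Members and gene lists were chosen with earlier results of these data known. RNA of perfused tissues was amplified from 3′ ends, sequenced, and, per the labels, handled with bcl2fastq, HISAT 0.1.5 and HOMER on mm10; the strand setting and any collapsing of molecular barcodes are not given in the sources used here. The authors deposited raw read counts per gene, 1 table for kidney, liver and lung and 1 for skin, which were annotated differently and not compared. Counts were tested with edgeR 4.0.16 (filterByExpr, TMM scaling, quasi-likelihood F test; the 3 groups of a tissue in 1 fit) in R 4.3.3, with Benjamini-Hochberg adjustment over all genes tested and a threshold of 0.05. DESeq2 1.42.0 and other settings were alternatives. Levels are CPM of scaled library size, and those of young tissues come from their joint fit. Per the study each group in the RNA-seq held at least 3 mice, although the labels do not assign libraries to mice. The p-values measure the spread between these libraries. Named genes were all members called, the 5 with most counts in young tissue, and the 5 with the smallest p where fewer passed; the other lists' genes were named where called, apart from a result that is not reported here. Gene positions are the files' own on GRCm38, and all 63 overlapped the GENCODE M21 gene of that name. Gstz1, Sult1a1, Sult2b1, Gstm5 and Gstt3 overlap exons of other genes, so their counts may be shared. The fits were tested on counts simulated from their own estimates of level and spread, with known changes added. Such counts cannot show how the fits handle outlier libraries or differences in tissue make-up. Replicate numbers are shared between groups. Deviations of same-numbered vehicle and ABT-737 samples correlated above 0.1 in every pair in lung alone (0.176, 0.296 and 0.427). Lung vehicle replicate 4 (0.296) correlated more highly with an ABT-737 sample of another number. Whether the numbers pair samples is therefore not settled. The blocked lung fit of these 2 groups called 0 members, as did the fit without the block.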

Additional observations from a re-analysis of the deposited data

Results flagged for a closer look

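In 2 of 69 sets of 4 young libraries, 1 library stood further from the rest than Dixon's test allows at 95%, and chance flags about 1 set in 20. Gsta4 was at 73.8 CPM in kidney young replicate 1 against 90.5 to 93.7 in the others, and Sult1a1 at 38.1 CPM in kidney young replicate 3 against 21.9 to 24.5. By the edgeR tests of the difference given above, the change with age differed between liver and kidney for 1 of 32 members, where 2.66% of all genes did. This was Gstm6, by -1.60 on the log2 scale. Between lung and kidney, compared after the values were seen, 3 of 27 members differed, where 8.35% of all genes did. These were Sult5a1 by -2.55, Gstm7 by -1.96 and Gstm6 by -2.11, the last in only 3 of 20 fits that each left out 1 library.

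For 3 members every vehicle library moved 1 way in 1 tissue and the opposite way in skin, and these differences were not tested, since skin is in a separate table. The Ugt1a locus changed by -1.37 in liver and -0.29 in kidney against 1.94 in skin, Sult5a1 by 1.06 in kidney against -1.97 in skin, and Gstt1 by -0.80 in lung against 1.03 in skin, all on the log2 scale. The Ugt1a changes in liver and skin and the Sult5a1 change in skin had passed. The kidney changes of the Ugt1a locus and Sult5a1 had not (edgeR adjusted p = 0.242 and 0.122). Gstt1 had passed in neither lung nor skin (edgeR adjusted p = 0.16 and 0.115).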

How the results depend on the processing

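Tests of old against young mice with the replicate number as a block called 4 members in liver, 1 in kidney and 0 in lung. Young and vehicle samples share only 2 numbers, too few to show whether these pair them. The block called 0 in liver for ABT-737 against vehicle. For the liver and kidney difference with age, blocking on the group and number shared by both tissues called 3. The block changed no other count by over 1.5 times. No blocked fit of old against young skin was possible because those groups share 1 number. With no filter beyond 1 count, 5 members were called in liver with ABT-737, 6 in old skin, and 2 and 1 in the liver and kidney differences with age and with treatment. Requiring 10 counts in every library gave 4 in old liver, 1 in liver with ABT-737, 1 in old lung, 0 and 1 in the differences of liver and of lung from kidney with age, and 14, 16 and 11 in the young comparisons of liver with kidney, liver with lung and kidney with lung (29, 25 and 22 without it), with fewer members tested. DESeq2 called 6 in old skin and 2 in each liver and kidney difference. Fitting the compared groups alone gave 0 in liver with ABT-737 and 5 in old skin.

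Leaving out each library in turn gave 1 to 6 members in old kidney, 3 to 8 in old liver, 0 to 7 in old lung and 0 to 4 in old skin. With ABT-737 it gave 0 to 1 in kidney, 0 to 7 in liver and 0 in lung and skin. It gave 28 to 30, 25 to 26 and 21 to 23 in the young comparisons, 0 to 4 and 0 to 3 in the liver and kidney differences, and 0 to 7 in the lung and kidney difference. The log2 fold changes of 2 members that had not passed changed sign with ABT-737: Gstz1 in lung ran from -0.059 without ABT-737 replicate 4 to 0.92 without ABT-737 replicate 5, and Gsto1 in skin from -1.40 without vehicle replicate 3 to 0.018 without vehicle replicate 5. The cause of these shifts was not tested. Liver depth limits what can be seen of members with few counts.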
